A study of Danio rerio with 4 samples.

Results

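Transport of newly made proteins from the endoplasmic reticulum (ER) to the Golgi apparatus was followed at the level of RNA in whole zebrafish larvae (Danio rerio). Members were all gene IDs whose symbol names a subunit or partner of the COPII coat, a COPI coat subunit, a cargo receptor, a TRAPP tether subunit or a Sec22 SNARE. The symbol rule found 63 of 32520 genes, of which 13 belonged to the COPII coat and its GTPase, 9 to the COPI coat, 23 to the cargo receptors, 14 to TRAPP and 4 to Sec22. The study compared untreated larvae with larvae given 12000000 smog particles, labelled PM2.5, from 72 hours after fertilization until 120 hours. Each group had 2 RNA sequencing libraries, and the RNA of a group came from 5 to 7 larvae. A zebrafish strain was not given in the sources used here. Nothing says that the 2 libraries of a group are from different clutches or from repeated exposures, so a p-value below reflects library-to-library spread, possibly a technical one.

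Proteins leave the ER in vesicles coated by COPII, a coat assembled when the small GTPase Sar1 recruits an inner layer of Sec23 and Sec24 and then an outer layer of Sec13 and Sec31. Cargo receptors, among them the p24 (TMED) proteins, lectins and Surf4, load selected proteins into these vesicles. TRAPP complexes tether arriving vesicles or activate the Rab GTPases that do so, and Sec22 is a SNARE of vesicle fusion. COPI, the coatomer, forms the vesicles that carry receptors and escaped ER residents back, the latter bound to KDEL receptors. In zebrafish, mutants of sec23a and sec24d have malformed cartilage with collagen held in the ER, and mutants of copa, copb1 and copb2 fail to form a normal notochord.

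The values were TPM, in which read numbers are divided by gene length and scaled to the same total, so levels of different genes can be set side by side. Whole read numbers worked out from the steps between TPM values put the libraries at 15415358 to 24456950 reads. PM2.5 library 1 was the deepest and had the fewest genes above 0, 24121 against 24923 to 25138 in the other libraries. Behind the members stood between 4 reads (tmed6 in PM2.5 library 1) and 4440 reads (copa in the same library). All 63 members reached a mean of 1 TPM and were tested. Of the 16 listed markers of larval tissues such as muscle, liver, eye, gut and nervous system, all but the heart gene nkx2.5 reached it too. RNA of whole larvae carries no cell of origin, so fewer cells of a type and less RNA per cell cannot be told apart.

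Transcripts for part of this machinery took a larger share of the RNA of exposed larvae, and most of the genes that rose encode cargo receptors. At an adjusted p under 0.05 (limma on log2(TPM + 1), Benjamini-Hochberg adjustment over all 20874 genes tested), 11 members were higher and 1 was lower, against a background of 8.46% of all genes tested called higher and 2.62% called lower. The 11 were tmed1b, tmed2, tmed3, tmed4, tmed9, tmed10, lman2, sec13, sar1b, cope and arcn1a, and the lower one was sar1ab. They made up 17.5% of the members. The median log2 fold change was 0.32 over the members and 0.07 over all genes tested. Both PM2.5 libraries lay above both controls in 48 members and below both in 6, and the same was true of 36.6% and 19.7% of all genes tested.

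The roles differed in their counts. Of the 23 cargo receptors 7 rose, which is 30.4%. Of these 7, 6 came from the 10 p24 genes, so the share of this role rests mostly on that family. Among the cargo receptors outside the p24 family lman2 was the only call. Of the other 40 members 4 rose, which is 10.0% and near the background of 8.46%. That pool held 2 of 9 COPI genes (22.2%) and 2 of 13 genes of the COPII coat and its GTPase (15.4%). No TRAPP or Sec22 gene passed in the limma fit of all 20874 genes tested, and none passed in limma's voom fit on read numbers either. In the former fit 8 of 14 TRAPP genes and 1 of 4 Sec22 genes had an unadjusted p under 0.05. So did 5669 of all 20874 genes tested, counting both directions. The TRAPP gene trappc2 passed with a minimum of 5 TPM. The median log2 fold change was 0.55 in the cargo receptors, 0.31 in the COPI coat, 0.28 in TRAPP, 0.16 in Sec22 and 0.14 in the COPII coat and its GTPase. The difference between roles was not tested.

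**Figure D1:**
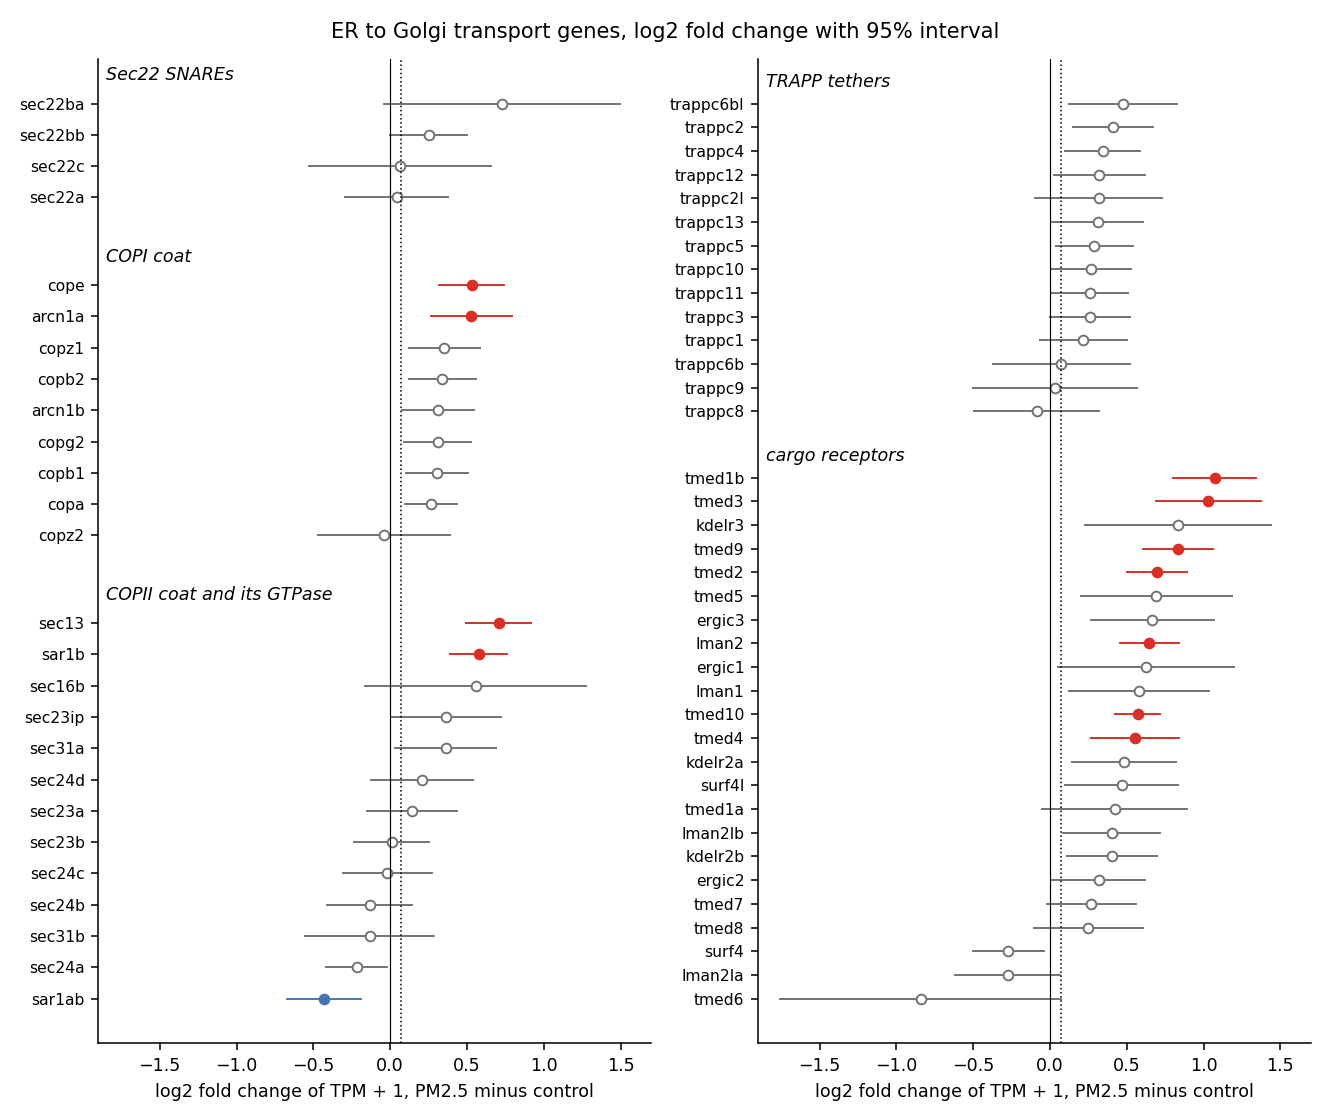
Log2 fold change of TPM + 1 (horizontal axis, PM2.5 minus control) for each of the 63 members, grouped by role, with lines for the 95% confidence interval of the limma fit. Filled red points passed the threshold as higher (11), the filled blue point as lower (sar1ab), open points did not pass, and the dotted line marks the median of all genes tested (0.07).

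Without the intensity trend in limma, only tmed1b and tmed3 of the called members kept their call. They are 3.17% of the members, against 3.19% of all genes tested called higher in that fit. Each library carried weight in the calls as well. With control library 1 left out, 1 member was called higher, and with control library 2 left out, 2 were. With PM2.5 library 1 left out the limma count was 0 (23 had an unadjusted p under 0.05), and with PM2.5 library 2 left out 5 were. The share of all genes called higher fell as well in those fits, to 1.72%, 2.09%, 1.38% and 2.95%. Between 51 and 56 of the 63 members had a log2 fold change above 0 in the same 4 fits. With all libraries and TPM as deposited 53 did, against 58.5% of all genes tested, a share not worked out for the other fits. With TMM-type scaling as well as with quantile normalization 48 did. There the median log2 fold change of all genes tested was -0.01 and -0.04.

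Markers of several cell types moved with exposure. The counts that follow stand against 8.46% of all genes tested called higher and 2.62% called lower. Of the mucous cell genes both that could be tested rose: agr2, a protein disulfide isomerase relative needed for mucin folding, and the mucin gene muc5.1. The 4 mucous cell genes found, of 5 listed, summed to 10.4 to 12.4 TPM in the controls and 83.1 to 85.8 TPM in the exposed larvae, with muc5.2 and muc5.3 too low to test. The mucin gene muc5.2 lay the other way, at 0.408 and 0.404 TPM in untreated larvae and 0.024 and 0.077 TPM in the exposed larvae, on 81, 61, 6 and 12 reads, and the groups of muc5.3 overlapped. Of 12 tested macrophage markers 4 rose, and the 13 listed genes summed to 49.7 to 53.7 TPM and then to 202 to 208 TPM. Of 13 cartilage and notochord sheath genes 4 rose (col2a1a, col9a1b, col9a2 and col9a3), with sums of 844 to 846 TPM and 1050 to 1053 TPM. In the exocrine pancreas, whose cells secrete digestive enzymes, 10 of 16 genes fell, with sums of 1929 to 1974 TPM and 1310 to 1355 TPM. Of 11 skin genes 4 rose and 7 fell, with sums of 16384 to 16608 TPM and 8313 to 8427 TPM. The sums weigh abundant genes most. The median log2 fold change was 0.54 for the macrophage list and 0.11 for the cartilage and notochord list. It was -0.54 for the exocrine pancreas and -0.51 for the skin, against 0.07 over all genes tested. Of the whole-larva tissue markers, where myhz1.1 stood under 2 gene IDs, 10 of 16 tested IDs fell and 1, the heart gene cmlc1, rose. Their sums went from 41735 and 40901 TPM to 31845 and 31226 TPM, with a median log2 fold change of -0.36, and prss1 and krt4 of this list are also in the pancreas and skin lists. TPM values of a library add up to a fixed total, so these sums and the levels of other genes are not independent. No listed marker that the table held was at 0 in all 4 libraries. The part of these shifts in the results on transport genes was not tested.

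The p24 proteins, small membrane proteins that cycle between ER and Golgi and help to export GPI-anchored cargo, held 6 of the 11 higher calls. Of the 10 p24 genes 6 rose. Their summed level was 307 and 311 TPM in the controls and 504 and 472 TPM in the exposed larvae, a ratio of group means of 1.58. All 4 p24 subfamilies were higher in both exposed libraries, with ratios of 1.73 for alpha (tmed4 and tmed9), 1.63 for beta (tmed2), 1.54 for gamma (tmed1a, tmed1b, tmed3, tmed5, tmed6 and tmed7) and 1.49 for delta (tmed10). Every alpha, beta and delta gene was called higher in these same libraries, so the sums of those subfamilies largely restate the calls. Of the 6 gamma genes 2 were called higher. No p24 gene changed the sign of its log2 fold change under any alternative tried.

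The gene tmed10 (ENSDARG00000041391, chromosome 20), the sole delta member here and the most abundant gene of all 63, was at 109 and 116 TPM in untreated larvae and 169 and 166 TPM in the exposed larvae. Its group means were 112.3 ± 4.62 and 167 ± 2.24 TPM (SD, n = 2), and the log2 fold change was 0.57 (SE 0.06, adjusted p = 0.0032). The groups stood well apart, with a gap many times the spread within either. Its beta partner tmed2 (ENSDARG00000026908, chromosome 10) was at 80.6 and 72.2 TPM in untreated larvae and 128 and 121 TPM in the exposed larvae. Its log2 fold change was 0.70 (SE 0.08, adjusted p = 0.0043). With control library 1 or PM2.5 library 1 left out tmed10 lost its call (adjusted p up to 0.062), and with control library 2 or PM2.5 library 1 left out tmed2 did (up to 0.075). Both proteins are known to form mixed complexes with alpha and gamma members.

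Of the alpha members, tmed9 (ENSDARG00000004261, chromosome 14) was at 42.6 and 44.98 TPM in untreated larvae and 84.5 and 73.3 TPM in the exposed larvae (log2 fold change 0.83, SE 0.09, adjusted p = 0.0041). The other alpha gene, tmed4 (ENSDARG00000024954, chromosome 23), was at 12.9 and 13.5 TPM and then at 20.9 and 18.8 TPM (0.55, SE 0.12, adjusted p = 0.035). In both genes PM2.5 library 1 was the higher of the exposed pair and the groups did not overlap. The call of tmed9 was kept with PM2.5 library 2 left out and lost without any 1 of the other 3 (adjusted p up to 0.069). That of tmed4 was lost after TMM-type rescaling, after quantile normalization and without any 1 of the 4 libraries (adjusted p 0.087 to 0.207).

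The gamma members had the widest range. The gene tmed1b (ENSDARG00000017255, chromosome 1) was at 12.5 TPM in both controls and at 28.7 and 26.1 TPM in the exposed larvae, where its reads went from 138 and 105 to 393 and 227. Its log2 fold change of 1.07 (SE 0.11, adjusted p = 0.0030) was the largest of all members, and its call was lost when control library 1 or PM2.5 library 1 was left out (adjusted p up to 0.058). Next came tmed3 (ENSDARG00000028816, chromosome 7), at 6.39 and 7.42 TPM and then at 15.1 and 15.2 TPM (1.03, SE 0.14, adjusted p = 0.0078). Leaving out any library ended the call of tmed3, with adjusted p between 0.061 and 0.093. These were the only members with a more than 2-fold ratio of group means among those past the threshold, at 2.19 each. Other gamma genes did not pass: the log2 fold changes were 0.69 for tmed5 (adjusted p = 0.085), 0.42 for tmed1a (0.225) and 0.27 for tmed7 (0.211).

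One gamma gene stood lower. The gene tmed6, for a p24 protein known in mammals from the pancreas, was at 2.504 and 2.247 TPM in untreated larvae and 0.367 and 1.59 TPM in the exposed larvae. Those values rested on 22, 15, 4 and 11 reads. The log2 fold change of -0.84 (95% interval -1.76 to 0.08, adjusted p = 0.214) did not pass, and the exposed libraries differed widely. The exocrine pancreas genes given above were lower in the same libraries, and their part in the value of tmed6 was not tested. The gene tmed8, which shares the lumenal fold of the p24 family, did not pass (log2 fold change 0.25, adjusted p = 0.335).

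**Figure D2:**
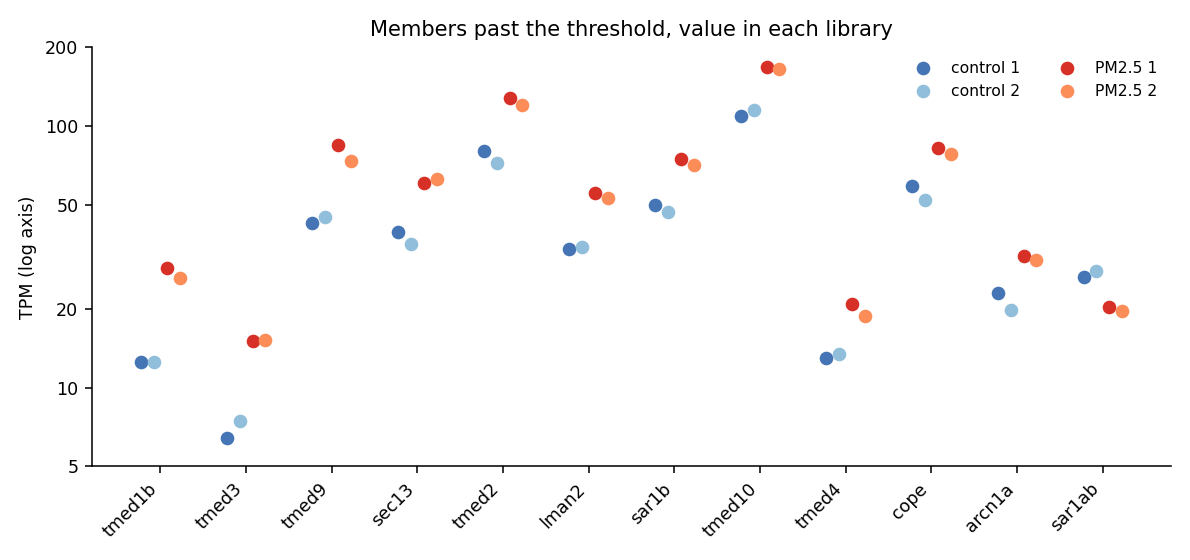
TPM (vertical axis, logarithmic) of the 12 members past the threshold in each of the 4 libraries, one point per library, ordered by log2 fold change from tmed1b (1.07) to sar1ab (-0.43). In each gene both exposed libraries lie on the same side of both controls, above them in 11 genes and below them in sar1ab. The genes were selected by adjusted p on these same libraries, which favours such a separation.

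Among the lectins, lman2 rose. It encodes VIP36, a lectin that binds high-mannose glycans of secreted glycoproteins. The gene (ENSDARG00000061854, chromosome 14) was at 34.0 and 34.6 TPM in untreated larvae and 55.4 and 53.1 TPM in the exposed larvae (log2 fold change 0.65, SE 0.08, adjusted p = 0.0057). It kept its call when PM2.5 library 2 was left out and lost it when any 1 of the other 3 was (adjusted p up to 0.077). The gene lman1, for the ERGIC-53 lectin that exports coagulation factors in mammals, was lower in level, at 7.41 and 5.27 TPM and then 9.88 and 9.86 TPM (0.58, adjusted p = 0.108). Of the lman2-like genes neither passed, lman2lb at 0.40 (adjusted p = 0.109) and lman2la at -0.28 (adjusted p = 0.266) on the log2 scale.

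The KDEL receptors return chaperones carrying a KDEL-type signal to the ER. None passed in the limma fit used for the calls above. With a replicate term added kdelr2a and kdelr2b passed as higher, and with voom kdelr2a and kdelr3 did. All the receptor genes were higher in both exposed libraries, as were 36.6% of all genes tested. The gene kdelr2a was at 25.9 and 32.6 TPM in untreated larvae and 38.0 and 44.3 TPM in the exposed larvae (0.48, adjusted p = 0.082). Its duplicate kdelr2b was at 31.6 and 39.2 TPM and then at 45.5 and 48.3 TPM (0.40, adjusted p = 0.090). The rarer kdelr3 was at 3.65 and 5.19 TPM and then at 10.5 and 6.94 TPM (0.83, adjusted p = 0.091), with a ratio of group means of 1.97 and a wide gap between the exposed libraries. In all 3 genes the controls differed, with control 2 the higher one. Summed, the receptors were at 61.1 and 77.0 TPM and then at 94.0 and 99.5 TPM.

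Genes for the ER chaperones that these receptors retrieve passed. The BiP gene hspa5 rose (log2 fold change 1.52), as did the GRP94 gene hsp90b1 (1.67) and the calreticulin genes calr (0.74) and calr3b (1.84). In a list of 9 ER stress genes, which was not among the planned lists, 7 rose, which is 77.8%, against 8.46% of all genes tested. A link between these genes and the KDEL receptors was not tested.

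The ERGIC proteins cycle between the ER and the compartment next to it. The gene ergic3 was at 8.73 and 11.4 TPM in untreated larvae and 15.2 and 17.7 TPM in the exposed larvae (0.67, adjusted p = 0.054), just short of the threshold. It passed as higher with a minimum of 5 TPM, with a replicate term and with voom. The log2 fold changes of ergic1 and ergic2 were 0.63 and 0.32, with adjusted p of 0.155 and 0.167. Surf4 is a receptor for lipoproteins and other secreted cargo in mammals. The more abundant surf4 was at 43.8 and 49.8 TPM in untreated larvae and 37.8 and 39.2 TPM in the exposed larvae (-0.27, adjusted p = 0.130), and it passed as lower after quantile normalization alone. The related surf4l was at 11.01 and 10.87 TPM and then at 17.5 and 13.7 TPM (0.47, adjusted p = 0.111).

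In the COPII coat the values differed by layer, and that difference was not tested. The inner layer of Sec23 and Sec24 had no call. The 4 Sec24 genes, which bind the sorting signals of cargo, summed to 107.2 and 107.1 TPM in the controls and 95.6 and 101 TPM in the exposed larvae, a ratio of 0.917. The 2 Sec23 genes summed to 47.4 and 50.5 TPM and then to 49.2 and 52.9 TPM, with overlapping groups. The outer layer summed to 55.3 and 52.9 TPM and then to 77.9 and 82.4 TPM, a ratio of 1.48 that came mostly from sec13.

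The gene sec13 (ENSDARG00000054807, chromosome 22) was at 39.3 and 35.5 TPM in untreated larvae and 60.5 and 62.8 TPM in the exposed larvae (log2 fold change 0.71, SE 0.09, adjusted p = 0.0056). Leaving out any library ended that call, with adjusted p between 0.0503 and 0.0729. Its product is also a subunit of the nuclear pore and of a regulator of the mTORC1 pathway, so its RNA is not specific to the coat. The genes of its partner in the coat, sec31a and sec31b, were low. The former was at 7.96 and 8.43 TPM and then at 10.6 and 10.98 TPM (0.36, adjusted p = 0.155), and the log2 fold change of sec31b was -0.13 (adjusted p = 0.675). Summed, the Sec31 genes had group means of 16.7 and 18.5 TPM, a ratio of 1.11.

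Of the inner layer, sec24a was the most abundant, at 62.5 and 57.4 TPM in the controls and 49.96 and 52.77 TPM in the exposed larvae (-0.22, 95% interval -0.42 to -0.02, adjusted p = 0.157). The log2 fold changes of sec24b, sec24c and sec24d were -0.13, -0.02 and 0.21. The 2 genes whose zebrafish mutants disturb cartilage did not pass. The gene sec23a was at 15.7 and 18.2 TPM and then at 19.0 and 18.5 TPM (0.14, 95% interval -0.15 to 0.43), and sec24d at 9.58 and 10.0 TPM and then at 10.8 and 12.2 TPM (0.21, 95% interval -0.12 to 0.54). Of the coat's partners, sec16b, which helps to organise ER exit sites, was at 1.42 and 2.96 TPM and then at 3.56 and 3.55 TPM (0.56, adjusted p = 0.288). The log2 fold change of the Sec23-binding gene sec23ip was 0.36 (adjusted p = 0.178).

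The Sar1 GTPases, which start coat assembly, moved in opposite directions and both passed. The gene sar1b (ENSDARG00000103403, chromosome 21), whose human counterpart is needed to export chylomicrons from the gut, was at 50.1 and 47.0 TPM in untreated larvae and 74.7 and 71.0 TPM in the exposed larvae (log2 fold change 0.58, SE 0.08, adjusted p = 0.0076). The gene sar1ab (ENSDARG00000033320, chromosome 13) was at 26.4 and 28.0 TPM and then at 20.3 and 19.6 TPM (-0.43, SE 0.10, adjusted p = 0.045). The ratio of sar1b to sar1ab was 1.90 and 1.68 in the controls and 3.68 and 3.63 in the exposed larvae. Its groups did not overlap, but with 2 libraries against 2 an exact two-sided permutation test cannot go below 0.333. Both calls were lost without any 1 of the 4 libraries, with adjusted p of 0.051 to 0.087 for sar1b and 0.127 to 0.257 for sar1ab.

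Of the 9 COPI genes 2 rose and 7 did not pass. Together the 9 genes summed to 395 and 392 TPM in the controls and 499 and 500.3 TPM in the exposed larvae, a ratio of 1.27 that was not tested. The epsilon subunit gene cope (ENSDARG00000018562, chromosome 2) was at 59.0 and 52.1 TPM and then at 82.8 and 78.4 TPM (0.53, SE 0.09, adjusted p = 0.015). The delta subunit gene arcn1a (ENSDARG00000002792, chromosome 5) was at 22.95 and 19.87 TPM and then at 31.8 and 30.8 TPM (0.53, SE 0.11, adjusted p = 0.032). Both calls were lost after TMM-type rescaling, after quantile normalization and without any 1 of the 4 libraries, so that no COPI gene passed in those fits.

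The other coatomer genes sat close together and short of the threshold. The alpha subunit gene copa was at 63.7 and 63.0 TPM in untreated larvae and 77.9 and 74.9 TPM in the exposed larvae, on 2199 to 4440 reads (0.27, 95% interval 0.10 to 0.44, adjusted p = 0.061). The beta and beta prime genes copb1 and copb2 had log2 fold changes of 0.30 and 0.34, the gamma gene copg2 0.31, the zeta gene copz1 0.35 and the second delta gene arcn1b 0.31, with adjusted p between 0.066 and 0.098. In these 6 genes both exposed libraries lay above both controls, as they did in 36.6% of all genes tested. The exception was copz2, a second zeta gene, at 21.8 and 31.4 TPM in the controls and 26.8 and 24.2 TPM in the exposed larvae, whose groups overlapped (-0.04, adjusted p = 0.911). Summed over duplicates, the ratio of group means was 1.34 for delta and 1.19 for zeta, and 1.21, 1.24, 1.27, 1.25 and 1.45 for alpha, beta, beta prime, gamma and epsilon.

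**Figure D3:**
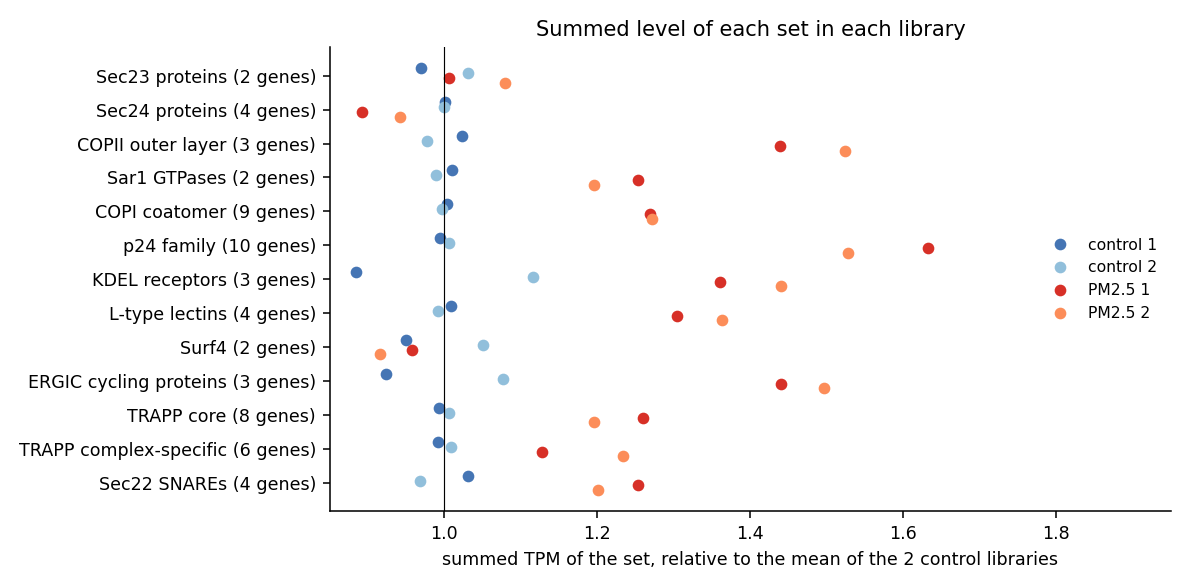
Summed TPM of each set of members in each library, divided by the mean of the 2 control libraries (horizontal axis), one point per library. The p24 family and the COPII outer layer lie farthest to the right, at ratios of group means of 1.58 and 1.48, whereas Sec24 (0.917) and Surf4 (0.937) lie below 1.

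None of the TRAPP genes passed the threshold in the limma fit of all 20874 genes tested. Of 14 genes 13 had a log2 fold change above 0, against 58.5% of all genes tested, and trappc6b and trappc9 went below 0 with TMM-type scaling and with quantile normalization. In 11 TRAPP genes both exposed libraries lay above both controls, against 36.6% of all genes tested. The 8 genes of the core summed to 170 and 172 TPM in the controls and 215 and 204 TPM in the exposed larvae, a ratio of 1.23. The smallest adjusted p belonged to trappc2, whose human counterpart is mutated in a skeletal dysplasia. It was at 15.4 and 16.2 TPM in untreated larvae and 21.2 and 21.4 TPM in the exposed larvae (0.41, adjusted p = 0.062). The core gene trappc4 was at 18.5 and 18.2 TPM and then at 23.3 and 23.7 TPM (0.34, adjusted p = 0.086). The most abundant genes were trappc1 (0.22, adjusted p = 0.295), trappc3 (0.26, 0.187) and trappc5 (0.29, 0.1397).

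The 6 genes found in TRAPPII or TRAPPIII only summed to 81.0 and 82.4 TPM in the controls and 92.1 and 101 TPM in the exposed larvae. The log2 fold changes were 0.27 for trappc10, 0.26 for trappc11, 0.32 for trappc12 and 0.31 for trappc13. In zebrafish a mutation of trappc11 causes a fatty liver. The genes trappc8 (-0.09) and trappc9 (0.03) had overlapping groups. The largest TRAPP value was that of trappc6bl (0.48, adjusted p = 0.094), for which PM2.5 library 1 was at 19.8 TPM and the other libraries at 12.1 to 15.8 TPM.

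The Sec22 SNAREs were led in level by sec22bb, at 22.8 and 22.2 TPM in the controls and 25.6 and 28.3 TPM in the exposed larvae (0.25, adjusted p = 0.183). Its duplicate sec22ba was at 4.41 and 3.56 TPM and then at 10.3 and 5.00 TPM (0.73, adjusted p = 0.203), a value set mostly by PM2.5 library 1. The log2 fold changes of sec22a and sec22c were 0.04 and 0.06.

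Ratios between related genes of the same step are free of a library's scaling. Besides the Sar1 pair, the ratio of lman2 to lman2la was 1.72 and 1.71 in the controls and 3.82 and 2.88 in the exposed larvae. That of surf4l to surf4 was 0.251 and 0.218 and then 0.463 and 0.349. The ratio of tmed1b to tmed1a went from 3.38 and 3.81 to 6.16 and 4.87. The groups also stood apart, with higher ratios in the exposed larvae, for lman2lb over lman2la, sec31a over sec31b, sec24d over sec24c and kdelr3 over kdelr2b. For kdelr2a over kdelr2b they did so by a small step, from 0.819 and 0.831 to 0.836 and 0.918. The groups overlapped for sec23a over sec23b, sec24b over sec24a, arcn1a over arcn1b, copz1 over copz2, sec22ba over sec22bb and trappc6bl over trappc6b. These pairs were chosen with the values in view. In each pair the gene with the larger log2 fold change was set over the other, so the upward direction of the ratios was fixed by that order. Reads shared by close duplicates may have been divided between them. The ratios were not tested, since the exact permutation test over 2 libraries a group cannot pass.

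**Figure D4:**
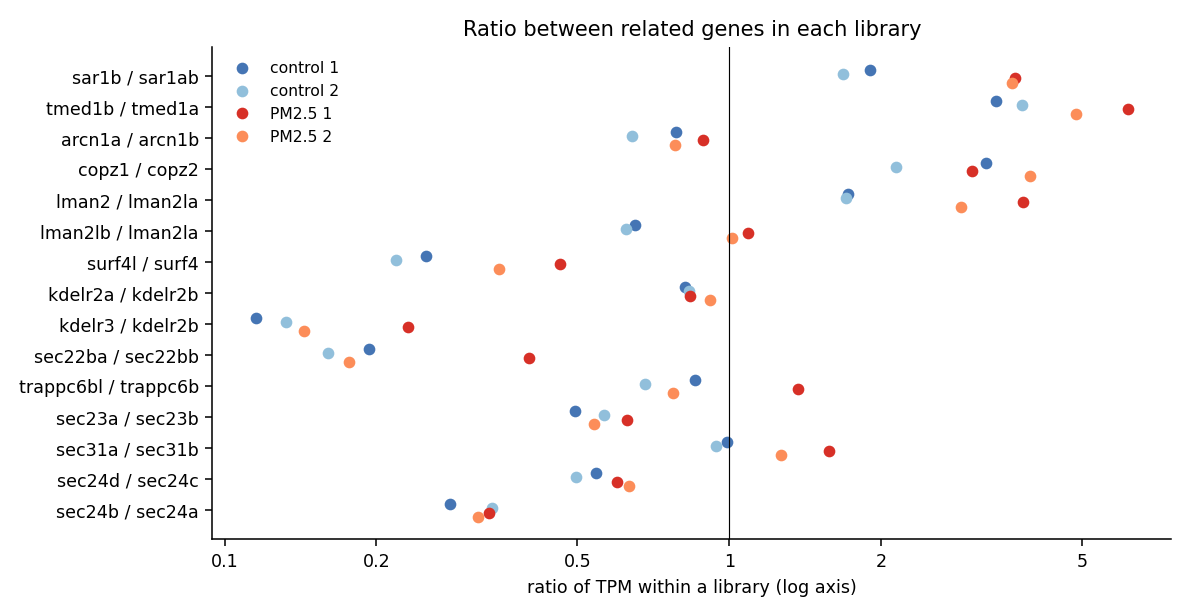
Ratio of TPM between related genes in each library (horizontal axis, logarithmic), one point per library, with a line at equal levels. The ratio of sar1b to sar1ab is at 1.90 and 1.68 in the controls and at 3.68 and 3.63 in the exposed larvae, and that of kdelr2a to kdelr2b lies between 0.819 and 0.918 in all 4 libraries.

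Other genes of the early secretory pathway, outside the symbol rule, were read from 5 lists. Of 87 tested genes 12 rose and 0 fell in limma, with 2 lower at an unadjusted p under 0.05. The 12 are 13.8%, against 8.46% of all genes tested called higher and 2.62% called lower, and the median log2 fold change was 0.24, against 0.07. A single gene, napba, an alpha-SNAP family gene named after its value was seen, passed as lower after TMM-type rescaling (-0.40, adjusted p = 0.031) and in 4 other alternatives. Of 20 regulators and cofactors of COPII export 5 rose. The transcription factor gene creb3l1, whose mammalian counterpart activates secretory genes in bone, was at 4.25 and 4.99 TPM in untreated larvae and 12.8 and 13.2 TPM in the exposed larvae (1.31, adjusted p = 0.0047). Its relative creb3l2, which in zebrafish is known to drive sec23a and sec24d in cartilage, was at 7.13 and 7.19 TPM and then at 9.69 and 7.65 TPM (0.24, adjusted p = 0.422). The cargo adaptor gene cnih4 (0.93, adjusted p = 0.011), the gene pef1 (0.73, 0.010), part of a calcium sensor at COPII sites, and the segregase gene vcp (0.49, 0.0047) also rose, as did bcap29 (0.67, 0.046), named after its value was seen.

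Of 11 tested genes of the ARF cycle, which recruits COPI, 3 rose (27.3%, against 8.46% of all genes tested). The GTPase gene arf1 was at 25.8 and 24.3 TPM in untreated larvae and 38.3 and 40.1 TPM in the exposed larvae (0.63, adjusted p = 0.010). The genes arf5 (0.49, 0.010) and arfgap3, a COPI-linked GTPase activator (0.60, 0.011), also rose, and gbf1, the exchange factor that activates ARF at the early Golgi, did not pass (-0.04, 0.916). Of 18 SNARE and fusion genes 3 rose (16.7%), namely napab (0.56, 0.018), nsfb (0.89, 0.025) and the ER SNARE gene stx18 (0.59, 0.040). The gene nsfb was at 5.36 and 5.50 TPM in untreated larvae and 12.2 and 9.66 TPM in the exposed larvae. Its far more abundant duplicate nsfa, named after its value was seen, did not pass (-0.12, 0.29). That gene was at 116 and 125 TPM and then at 110 and 111 TPM. Of 11 Rab genes only rab1ab passed, which is 9.09% and near the share of all genes tested. It encodes a Rab1 GTPase that TRAPP activates, and was at 63.5 and 60.0 TPM in untreated larvae and 93.0 TPM in both exposed libraries (0.58, adjusted p = 0.0049). None of 27 golgin, COG and other tether genes passed with limma on TPM. An unadjusted p under 0.05 was found for 5 of them, and for 5669 of all 20874 genes tested. With voom 1 passed as higher, against 11.2% of all genes tested.

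The members' distance from the rest of the genes changed little with scaling, which for TMM-type rescaling was fixed in advance. That rescaling divides each library by a single factor, so it moves all genes nearly alike and cannot test the distance. The median log2 fold change of the members exceeded that of all genes tested by 0.25 with TPM as deposited, by 0.24 after TMM-type rescaling and by 0.25 after quantile normalization. Quantile normalization lowered the median of all genes from 0.07 to -0.04, and TMM-type rescaling to -0.01. The counts moved more. With TPM as deposited 1766 genes were called higher and 547 lower. After TMM-type rescaling these were 1248 and 774 of all genes and 8 and 1 of the members, and after quantile normalization 1324 and 962 of all genes and 8 and 2 of the members.

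**Figure D5:**
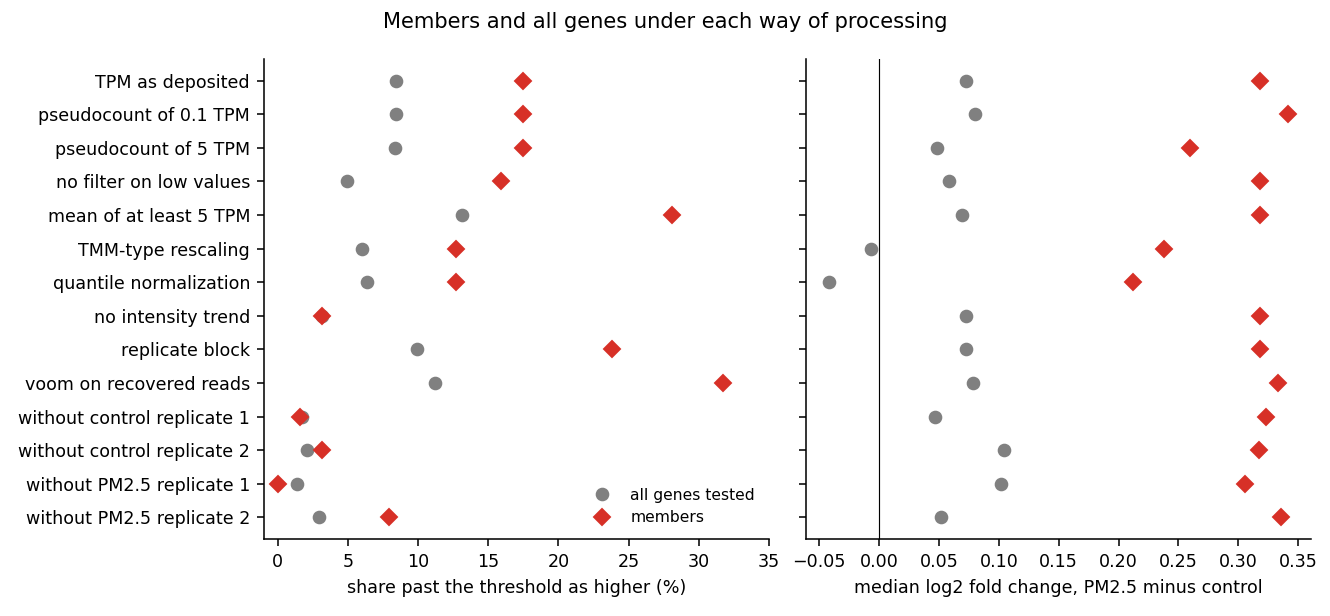
Left, share of genes past the threshold as higher (percent); right, median log2 fold change (PM2.5 minus control); grey circles are all genes tested and red diamonds the members, one line for each way of processing. The members' median stays between 0.21 and 0.34, whereas their share of higher calls runs from 0% without PM2.5 replicate 1 to 31.7% with voom on read numbers.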

How the data were processed

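Whole-larva RNA with an integrity number over 7.8 was read in pairs of 150 bases, per the labels' design text. The submitters' processing notes list cutadapt 1.18, STAR 2.6.1c and GRCz11. Counting program, annotation, strand setting and treatment of reads matching several places: not given in the sources used here. What the authors deposited is a single TPM table of 32925 rows; 405 rows repeating a gene ID were dropped. Sample titles gave the groups. The test was limma 3.58.1 (R 4.3.3) on log2(TPM + 1) for every gene averaging 1 TPM or more, with the group as its sole term and a trend in eBayes, two-sided, p-values adjusted by Benjamini-Hochberg and called under 0.05. Each gene has 2 residual degrees of freedom and gains 4.15 from the others. Fold changes on this scale understate changes of low genes; ratios of group means are of TPM itself.

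Read numbers were sought that make each gene's TPM values whole multiples of 1 read. They were found within 0.002 reads for all 25331 genes above 0 in at least 2 libraries, up to a factor common to the libraries of a gene, so depths are lower bounds. A voom fit on them was added after seeing the data. Test and read search were tried on simulated data. Members, lists and tests were chosen with earlier results of these data known, and summed sets and gene pairs with the values in view. Named were members past the threshold, the most abundant and most changed of each role, and their duplicates. Each other list gave up to 4 genes past the threshold. A few genes were named for their role (creb3l2, gbf1, ER chaperones and markers). After their values were seen, bcap29 (the fifth of its list), napba and nsfa were added. Alternatives changed the pseudocount (0.1 or 5 TPM), the minimum (none or 5 TPM), the scaling, the trend, a replicate term or the libraries used.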

Additional observations from a re-analysis of the deposited data

How the results depend on the processing

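With 2 libraries a group, leaving out a library ended some or all of the calls of single members, and few reads limit low genes such as tmed6. The 11 members called higher became 2 without the intensity trend and 20 with voom, and ran from 0 to 5 when 1 library was left out. The single lower member, sar1ab, was lost (0 lower) without a filter, without the trend and without any 1 library, and the lower count was 2 after quantile normalization. Of COPII genes 2 higher became 0 without the trend or without any 1 library, and 1 lower became 0 without a filter, the trend or any 1 library. Of COPI genes 2 higher became 5 with a minimum of 5 TPM and with voom, and 0 after TMM-type rescaling, quantile normalization, without the trend or without any 1 library. Cargo receptors called higher went from 7 to 2 without the trend and to 12 with voom (0 to 5 without 1 library), and 1 was lower after quantile normalization. One TRAPP gene, trappc2, passed with a minimum of 5 TPM. The 12 higher genes of the other lists became 1 without the trend (0 to 4 without 1 library), and 1 was lower with a minimum of 5 TPM, both rescalings, voom and the replicate block. Under the other alternatives run these counts stayed within 1.5 times. The share of all genes tested called higher moved as well, from 8.46% with TPM as deposited. It was 13.1% with a minimum of 5 TPM, 11.2% with voom and 3.19% without the trend. After TMM-type rescaling it was 5.98%, and after quantile normalization 6.34%. Leaving out a library leaves a lone sample in its group, assumed to vary like the other pair, and fewer degrees of freedom.

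The signs of 9 members near 0 turned, none past the threshold in any fit. With 1 library left out the log2 fold change ran from -0.292 to 0.212 for copz2 (also 0.0307), from -0.101 to 0.230 for sec22c, from -0.0780 to 0.0992 for sec23b (also -0.00123), from -0.112 to 0.0765 for sec24c (also 0.0237), from -0.292 to 0.0257 for sec31b, from -0.157 to 0.305 for trappc6b (also -0.0461), from -0.237 to 0.0657 for trappc8 (also 0.0369) and from -0.203 to 0.272 for trappc9. With TMM-type rescaling and then with quantile normalization it was -0.0387 and -0.0711 for sec22a, -0.000736 and -0.0672 for sec22c, -0.0758 and -0.104 for sec23b, -0.00998 and -0.0173 for trappc6b, and -0.0401 and -0.0831 for trappc9. With voom it was 0.00175 for copz2, -0.00316 for sec23b and -0.0213 for trappc9. The cause was not tested.

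Replicate numbers are shared by the groups, and same-numbered libraries deviated together only weakly (correlation 0.065 across genes). Such a correlation cannot show whether same-numbered libraries shared a batch or a preparation, and that was not tested. With a replicate block 15 members were called higher and 1 lower. Over all genes tested that fit called 2072 higher (9.93%) and 781 lower, against 1766 (8.46%) and 547 without the block.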
